A study of Brassica napus with 27 samples.

Results

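WRKY70, WRKY70-1 and NPR1 are the 3 named regulators of salicylate signalling followed here, in leaves of oilseed rape (Brassica napus, cultivar Westar). They were picked by identifier from the gene count table, as LOC106367975 (WRKY70), LOC106368083 (WRKY70-1) and LOC106376076 (NPR1). All 3 had enough counts to be tested, among 72039 tested genes and 119532 gene entries in all. RNA sequencing compared wild type (WT) with 2 CRISPR-edited lines. The line bnaa06fah, called the single line below, is mutant in BnaA06FAH. The line bnafah, called the double line, is mutant in BnaA06FAH and BnaC05FAH. Tyrosine breakdown ends with fumarylacetoacetate hydrolase, the product of FAH genes, and the study looks at the cell death that follows in short days when FAH is mutated. The labels call the lines transgene-free, use both "knock down" and null for them, and give 1 line code for each genotype, so that a genotype cannot be told apart from its line. The FAH genes are not analysed here.

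Seedlings of all groups grew for 5 days on plates and for 2 weeks on soil in long days (LD). Leaves were taken in LD, 1 day after transfer to short days (SD1) and 2 days after it (SD2), with 3 libraries in each of the 9 groups. The labels state 16 h of light and 8 h of dark for both the long and the short days, and the group names are used as given. Plant age moves with stage and cannot be told apart from it. Nothing in the labels says that replicates came from separate plants, and p-values therefore speak of the spread among these samples only, possibly technical.

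Salicylate is a defence hormone that plants build up after infection by biotrophic pathogens and around dying cells. In Arabidopsis, NPR1 binds salicylate and acts with TGA transcription factors as a coactivator of salicylate-responsive genes. NPR1 is controlled in large part through its protein, which moves from the cytosol to the nucleus. WRKY70 encodes a transcription factor that in Arabidopsis lies downstream of NPR1. There it promotes salicylate-responsive genes, holds back jasmonate-responsive ones and delays leaf senescence.

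Libraries held 49700646 to 58862542 counts. The members had 490 to 6721 counts in any library. For NPR1, whose replicates differed by a coefficient of variation of only 1.98% in double-line LD, counting error is of the size of the replicate spread in some groups. In a principal component analysis of 5000 variable genes the 9 single-line libraries lay at -114.4 or below on the first component and the 18 others at 43.63 or above. On the second component double-line SD2 replicate 2 had a score of -5.43, against 116.9 and 123.5 for replicates 1 and 3, and the SD2 and average values of the double line against wild type are also given without it for both WRKY70 genes. Of the flower markers, AG1 reached at most 0.434 CPM (counts scaled to library size), and APETALA3, AP32 and AP34 at most 0.664 CPM. The flowering-time genes AGL20 had 1.615 to 14.7 CPM (LOC106450890) and 11.5 to 155.5 CPM (LOC106438253). The vascular cellulose synthase genes varied widely, from 0.497 to 10.4 CPM for CesA8.1 and from 0.3695 to 4.96 CPM for CesA4.1, as did the plastid gene psbA, from 1.095 to 14.2 CPM. Their part in the members' values was not tested. The plastid gene rbcL, for the large Rubisco subunit, had 2.58 to 5.50 CPM. In whole leaves, a change in the make-up of cell types and a change per cell cannot be told apart.

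WRKY70 was most abundant in wild type at SD1. As normalised CPM (counts divided by the TMM-scaled library size) it stood at 51.8, 34.6 and 100.6 in the 3 wild-type LD libraries. At SD1 it stood at 101.5, 116.1 and 101.5 CPM, and at SD2 at 35.2, 47.3 and 44.7 CPM. All SD1 libraries lay above all SD2 and LD libraries, and the LD libraries spread over nearly the whole range. In the single line it stood at 22.3, 34.9 and 16.7 CPM in LD, at 17.9, 17.9 and 16.5 CPM at SD1 and at 13.0, 39.2 and 22.3 CPM at SD2. In the double line the values were 21.9, 27.2 and 22.5 CPM in LD, 42.4, 34.2 and 12.7 CPM at SD1, and 32.6, 55.7 and 53.7 CPM at SD2. Both lines lay below every wild-type library at SD1, and at SD2 the double-line libraries overlapped the wild-type ones.

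WRKY70-1 was also most abundant in wild type at SD1, where 1 LD library lay within the SD1 range. Its wild-type libraries held 27.4, 15.9 and 54.2 CPM in LD, 52.2, 59.8 and 49.8 CPM at SD1 and 20.2, 34.3 and 26.8 CPM at SD2. The single-line libraries held 13.8, 20.7 and 13.8 CPM in LD, 14.6, 12.3 and 9.42 CPM at SD1, and 8.32, 22.3 and 13.5 CPM at SD2. The double-line libraries held 12.5, 17.1 and 11.2 CPM in LD, 17.5, 17.8 and 9.33 CPM at SD1, and 11.9, 26.4 and 20.5 CPM at SD2. As for WRKY70, no library of either line reached the wild-type range at SD1.

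NPR1 varied far less. Its wild-type libraries held 11.2, 12.1 and 12.4 CPM in LD, 15.4, 18.1 and 15.9 CPM at SD1 and 13.3, 13.1 and 15.8 CPM at SD2. In the single line they held 14.99, 14.6 and 14.1 CPM in LD, 12.9, 13.7 and 18.2 CPM at SD1, and 20.2, 21.6 and 17.7 CPM at SD2. In the double line they held 16.9, 16.7 and 17.3 CPM in LD, 15.2, 17.6 and 11.3 CPM at SD1, and 14.4, 13.0 and 21.6 CPM at SD2. The highest library held 1.93 times the lowest, against 9.16 times for WRKY70 and 7.18 times for WRKY70-1.

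**Figure D1:**
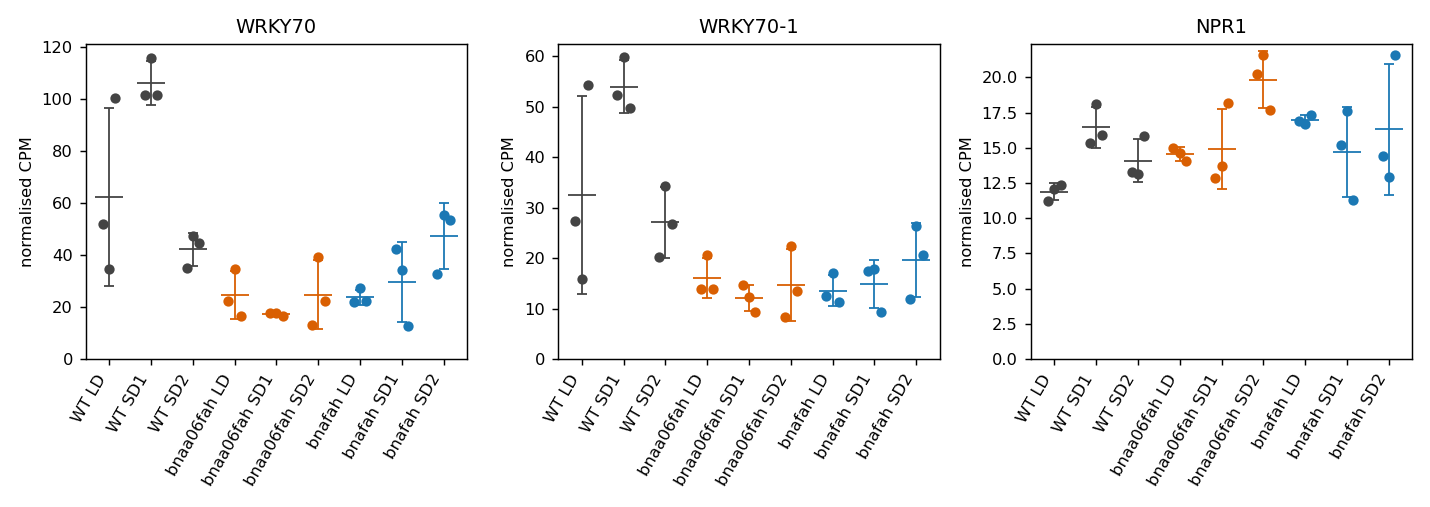
Normalised CPM of WRKY70, WRKY70-1 and NPR1 (vertical axes, from 0) in the 9 groups. Points are libraries and bars are mean ± SD of 3. Wild-type SD1 libraries of both WRKY70 genes, at 101.5 or more and 49.8 or more, stand above all libraries of both mutant lines, while NPR1 stays between 11.2 and 21.6.

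Levels of different genes were compared per length, in FPKM, fragments scaled to gene length and library size, from the authors' table. In wild type at SD1 WRKY70 stood at 94.97 ± 9.59 FPKM (SD, n = 3), WRKY70-1 at 43.02 ± 5.27 FPKM and NPR1 at 6.83 ± 0.785 FPKM. In the single line at SD1 the same levels were 15.7 ± 1.54, 9.76 ± 2.80 and 6.204 ± 0.842 FPKM. Over the 27 libraries the median level was 30.4 FPKM for WRKY70, 13.3 FPKM for WRKY70-1 and 6.12 FPKM for NPR1. Ordered by mean CPM, WRKY70 was highest in wild type at SD1 (106.4 ± 8.43) and lowest in the single line at SD1 (17.4 ± 0.799). Of the 8 neighbouring pairs of groups in that order, 2 did not overlap in their libraries, wild-type SD1 over wild-type LD and double-line LD over single-line SD1. For WRKY70-1 the order ran from wild-type SD1 (53.9 ± 5.22) to single-line SD1 (12.1 ± 2.61), and the libraries of all 8 neighbouring pairs overlapped. For NPR1 it ran from single-line SD2 (19.8 ± 2.00) to wild-type LD (11.9 ± 0.600), and only the pairs at both ends of the order, single-line SD2 over double-line LD and wild-type SD2 over wild-type LD, did not overlap. The groups were ordered by these same values, so the overlaps only describe the order. Libraries without overlap are common, as in 15.5% of all genes for the double line against wild type in LD.

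At SD1 both WRKY70 genes were lower in the single line than in wild type. WRKY70 averaged 17.4 CPM in the single line against 106.4 CPM, a log2 fold change of -2.61 ± 0.43 (SE; edgeR quasi-likelihood test, adjusted p = 2.90e-04, Benjamini-Hochberg over all tested genes). WRKY70-1 averaged 12.1 against 53.9 CPM (log2 -2.15 ± 0.40, edgeR adjusted p = 0.00144). NPR1 averaged 14.9 against 16.5 CPM and did not pass (log2 -0.14 ± 0.18, edgeR adjusted p = 0.876). In this comparison 3.07% of all tested genes were called, 2.24% as lower, and 10.3% had all single-line libraries below all wild-type ones. Both calls held under all 15 alternatives tried, with log2 values of -2.64 to -2.52 for WRKY70 and -2.31 to -2.00 for WRKY70-1.

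In long days the single line stood at log2 -1.34 ± 0.41 for WRKY70 (24.6 against 62.3 CPM, edgeR adjusted p = 0.0909) and -1.01 ± 0.39 for WRKY70-1 (16.1 against 32.5 CPM, adjusted p = 0.217). At SD2 it stood at -0.77 ± 0.41 for WRKY70 (24.8 against 42.4 CPM, edgeR adjusted p = 0.523) and at -0.88 ± 0.39 for WRKY70-1 (14.7 against 27.1 CPM, adjusted p = 0.394). None of these 4 values passed. Called genes made up 2.98% of all tested genes in LD and 2.56% at SD2. The LD value of WRKY70 rests on the spread of the wild-type libraries. It was -0.81 without wild-type LD replicate 3, the library at 100.6 CPM, and -1.63 without replicate 2, when it passed (edgeR adjusted p = 0.0390). DESeq2 also called it (log2 -1.35, adjusted p = 0.0239). The difference between the stages was tested in itself. The SD1 change of WRKY70 was lower in the single line than in wild type by log2 -1.27 ± 0.57 (edgeR adjusted p = 0.733) and that of WRKY70-1 by -1.14 ± 0.55 (adjusted p = 0.764), and neither passed. In that test 0.00278% of all genes were called.

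The double line gave the same direction at SD1, against the same 3 wild-type libraries, so the comparisons of the lines are not independent. The wild-type mean of WRKY70 was 106.4 CPM and the double-line mean 29.8 ± 15.4 CPM (SD, n = 3; log2 -1.84 ± 0.42 SE, edgeR adjusted p = 0.0403). WRKY70-1 averaged 14.9 ± 4.81 against 53.9 CPM (log2 -1.86 ± 0.40, edgeR adjusted p = 0.0266). Here 0.565% of all tested genes were called and 0.212% as lower, and 4.96% had all double-line libraries below all wild-type ones. These calls lie near the threshold. WRKY70 lost its call without any 1 of the 6 libraries but double-line SD1 replicate 1, and WRKY70-1 without any 1 of the 6, with edgeR adjusted p up to 0.217 and 0.192. The log2 values then ran from -2.18 to -1.47 and from -2.01 to -1.61. Replicate 3, the lowest double-line SD1 library for both genes, is the one whose removal brings WRKY70 to -1.47.

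In long days the double line stood at log2 -1.38 ± 0.41 for WRKY70 (23.9 against 62.3 CPM, edgeR adjusted p = 0.175) and at -1.26 ± 0.39 for WRKY70-1 (13.6 against 32.5 CPM, adjusted p = 0.209), with 0.652% of all genes called. DESeq2 called WRKY70 there (log2 -1.40, adjusted p = 0.0371). Without wild-type LD replicate 3 these values were -0.86 and -0.67, and the LD value of WRKY70-1 in the single line was -0.43. At SD2 the mean of WRKY70 was 47.3 ± 12.8 CPM against 42.4 ± 6.36 CPM in wild type. Its log2 value of 0.16 ± 0.40 had an edgeR adjusted p of 0.859, against a background of 6.80% of genes called. WRKY70-1 stood at -0.47 ± 0.39 at SD2 (19.6 against 27.1 CPM, edgeR adjusted p = 0.503). Without double-line SD2 replicate 2 these values were 0.03 and -0.74, and neither passed (edgeR adjusted p = 0.986 and 0.257). From LD to SD2 the change of WRKY70 was higher in the double line than in wild type by log2 1.54 ± 0.57, which did not pass (edgeR adjusted p = 0.105, and 6.17% of genes called). It was 1.41 without that library (adjusted p = 0.128). From LD to SD1 the change in the double line differed from that in wild type by log2 -0.45 ± 0.57 for WRKY70. For WRKY70-1 it differed by -0.60 ± 0.55. Neither passed, in a test with 0.00% of genes called. The double line compared with the single line gave no call for any member at any stage, where 2.13%, 2.15% and 7.50% of all genes were called in LD, at SD1 and at SD2. The nearest was WRKY70 at SD2, at 47.3 against 24.8 CPM (log2 0.93 ± 0.41, edgeR adjusted p = 0.166).

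**Figure D2:**
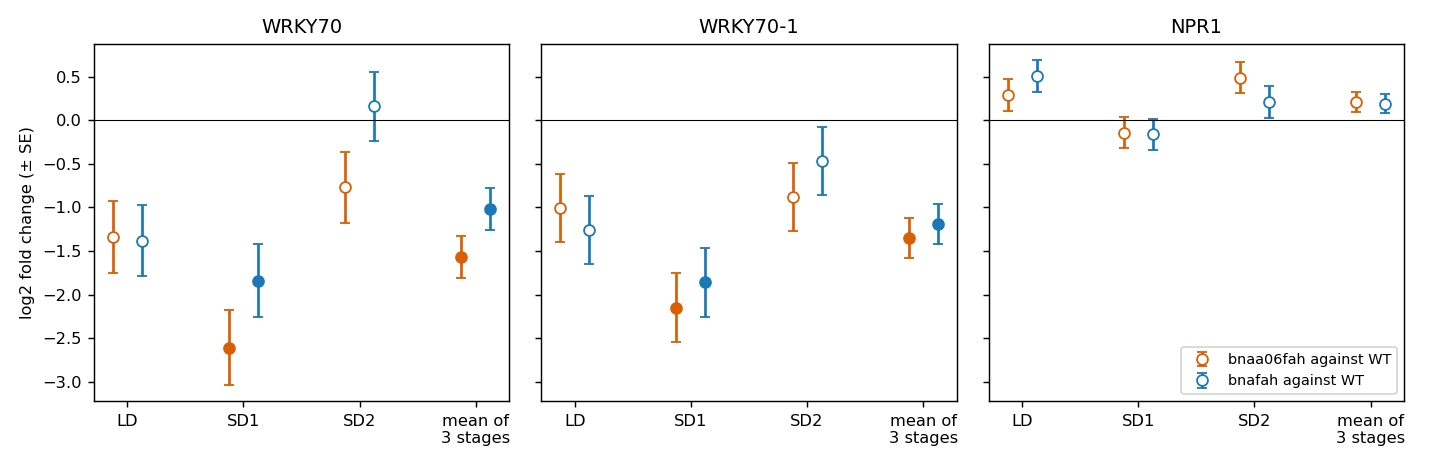
Log2 fold change of each line against wild type (vertical axis, ± SE) at LD, SD1 and SD2 and averaged over the 3 stages, for WRKY70, WRKY70-1 and NPR1. Filled points passed an edgeR adjusted p of 0.05. Both WRKY70 genes are filled at SD1 and in the average in both lines, from -2.61 to -1.02, and NPR1 has open points throughout.

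Averaged over the 3 stages with equal weight, both WRKY70 genes were lower in both lines. In the single line WRKY70 stood at log2 -1.57 ± 0.24 against wild type (edgeR adjusted p = 5.57e-05) and WRKY70-1 at -1.35 ± 0.23 (adjusted p = 2.33e-04), with 5.56% of all tested genes called, 3.53% as lower and 2.04% as higher. In the double line WRKY70 stood at -1.02 ± 0.24 (edgeR adjusted p = 0.0156) and WRKY70-1 at -1.19 ± 0.23 (adjusted p = 0.00253), with 2.57% of genes called, 1.18% as lower and 1.39% as higher. The 4 calls held under every alternative tried, 27 for the single line and 26 for the double line, and the highest adjusted p was 0.0465, for WRKY70 in the double line. For WRKY70 in the double line the average joins log2 -1.38 in LD, -1.84 at SD1 and 0.16 at SD2, and at SD2 it was thus not lower. Without double-line SD2 replicate 2 the double-line averages were -1.07 and -1.28. Both comparisons share their wild-type libraries. Between the lines themselves the average difference was 0.55 ± 0.23 for WRKY70 (edgeR adjusted p = 0.198) and 0.16 ± 0.22 for WRKY70-1 (adjusted p = 0.780), with 5.88% of genes called. NPR1 was not called in either average, at 0.21 ± 0.11 in the single line (edgeR adjusted p = 0.321) and 0.19 ± 0.11 in the double line (adjusted p = 0.488).

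Within a genotype no member was called between stages by edgeR, out of 27 combinations of member and contrast, and 6 of them had an unadjusted p under 0.05. In the order LD to SD1, LD to SD2 and SD1 to SD2, adjusted calls took 0.112%, 5.87% and 0.00278% of all genes in wild type. They took 0.268%, 9.97% and 0.00416% in the single line and 0.271%, 15.7% and 2.21% in the double line. An unadjusted p under 0.05 was found for 14.9%, 24.0% and 10.1% of genes in wild type, 13.6%, 26.1% and 8.02% in the single line, and 12.7%, 30.1% and 19.0% in the double line. DESeq2 called none either. In wild type WRKY70 stood at log2 0.77 ± 0.40 from LD to SD1 (edgeR adjusted p = 0.382) and at -1.33 ± 0.41 from SD1 to SD2 (adjusted p = 0.336). WRKY70-1 stood at 0.73 ± 0.39 and -0.99 ± 0.39 in the same steps (edgeR adjusted p = 0.388 and 0.421). The wild-type peak of both genes at SD1 is thus a difference in level without a call. WRKY70 in the double line had means of 23.9 CPM in LD and 47.3 at SD2 (log2 0.99 ± 0.41, edgeR adjusted p = 0.102). On the authors' FPKM scale this change passed in limma, at 1.24 with a pseudocount of 0.1 (adjusted p = 0.0273) and also with a pseudocount of 1 (adjusted p = 0.0266).

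NPR1, the receptor and coactivator, was not called in any comparison of lines or stages by edgeR or DESeq2. In long days it averaged 16.98 ± 0.336 CPM in the double line against 11.9 ± 0.600 CPM in wild type (SD, n = 3; log2 0.51 ± 0.18 SE, edgeR adjusted p = 0.284), with no overlap of libraries. No overlap was seen in 15.5% of all genes in that comparison. At SD2 the single line averaged 19.8 ± 2.00 against 14.1 ± 1.52 CPM for wild-type libraries (log2 0.49 ± 0.18, edgeR adjusted p = 0.242), again with no overlap, as for 18.6% of genes. Within wild type NPR1 stood at 0.47 ± 0.18 from LD to SD1 (edgeR adjusted p = 0.230), and within the single line at 0.45 ± 0.18 from LD to SD2 (adjusted p = 0.122). The change of NPR1 to SD1 differed in the double line from that in wild type by -0.68 ± 0.26 (unadjusted p = 0.0154 and edgeR adjusted p = 1.000), a test in which 0.00% of genes were called. The 3 remaining differences of stage changes gave no call for any member either. They were the SD2 change of the single line against wild type (0.00% of genes called) and the SD1 and SD2 changes between the lines (0.00139% and 0.0208%). At double-line SD2 replicates 1 and 2 held 14.4 and 13.0 CPM and replicate 3 held 21.6 CPM. The double line against wild type stood there at 0.21 ± 0.18 (edgeR adjusted p = 0.518), at 0.35 without replicate 2 and at -0.01 without replicate 3. Averaged over the 3 genotypes, NPR1 stood at 0.21 ± 0.11 from LD to SD2 (edgeR adjusted p = 0.132, with 31.5% of genes called, against 12.3% from LD to SD1 and 1.01% from SD1 to SD2). In limma on FPKM that average passed, at 0.36 with a pseudocount of 0.1 (adjusted p = 0.0118).

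The WRKY70 genes tracked each other across libraries. After the mean of each genotype was subtracted, Pearson's r of their log2 CPM over the 27 libraries was 0.923, and among the 51029 other genes with a mean of at least 1 CPM each was the closest to the other. Spearman's rho was 0.922. The labels and tables do not say how the authors assigned reads between near-identical copies, and these genes carry the same base name, so part of this likeness may come from shared reads, which was not tested. NPR1 had an r of 0.377 with WRKY70 and 0.261 with WRKY70-1, and NPR1 was at rank 2131 among all genes in likeness to WRKY70. These values describe libraries that share their groups and carry no p.

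**Figure D3:**
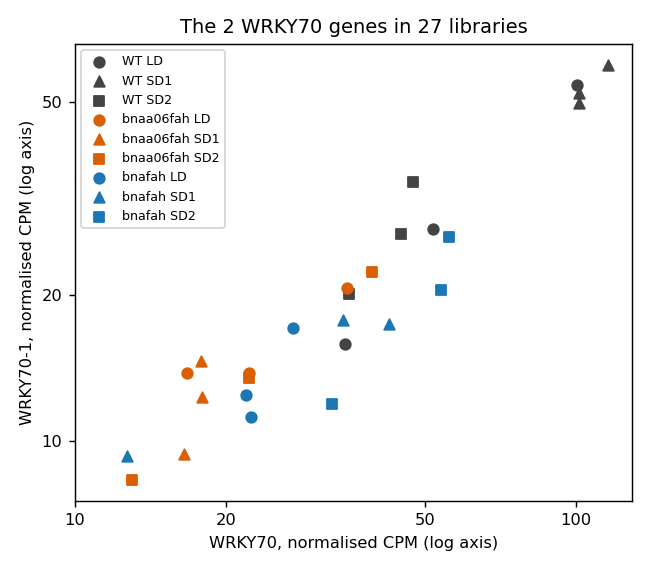
Normalised CPM of WRKY70 (horizontal) and WRKY70-1 (vertical), both on log axes, for 27 libraries coloured by genotype and shaped by stage. The libraries lie along a line from 12.7 and 9.33 (double-line SD1 replicate 3) to 116.1 and 59.8 (wild-type SD1 replicate 2).

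The composition of the pair was compared as the share of WRKY70-1 in their summed counts, which does not depend on library size. It may depend on how reads were assigned between the copies, which was not tested. The share was 34.6%, 31.4% and 35.0% in the wild-type LD libraries, 33.97%, 33.99% and 32.9% at SD1 and 36.4%, 42.1% and 37.5% at SD2. In the single line it was 38.3%, 37.2% and 45.2% in LD, 45.0%, 40.8% and 36.4% at SD1 and 39.1%, 36.3% and 37.7% at SD2. In the double line it was 36.2%, 38.6% and 33.3% in LD, 29.2%, 34.3% and 42.4% at SD1, and 26.8%, 32.2% and 27.7% at SD2. In LD and at SD1 all single-line libraries lay above all wild-type ones, and at SD2 all double-line libraries lay below all others. At SD2 the single-line mean was 37.7% against 38.65% in wild type. The double-line mean was above wild type in LD (36.0% against 33.7%) and at SD1 (35.3% against 33.6%). At SD2 it was below, at 28.9% against 38.65%. The averages over stages below thus join stages of opposite direction against wild type. Averaged over stages, the share was 39.6% in the single line, 35.3% in wild type and 33.4% in the double line. It was higher in the single line than in wild type by 4.24 percentage points (exact two-sided permutation within stages, n = 9 and 9 libraries, p = 0.0190, adjusted p = 0.0285 over 3 genotype pairs). It was lower in the double than in the single line by -6.16 percentage points (exact permutation, adjusted p = 0.0210). Double line and wild type differed by -1.93 points (exact permutation, adjusted p = 0.378). The first of these differences did not pass with FPKM (3.76 points, exact permutation adjusted p = 0.0555), nor without wild-type LD replicate 2, SD1 replicate 3, SD2 replicate 1 or SD2 replicate 3, or single-line SD2 replicate 1 (adjusted p up to 0.0664). The second passed with FPKM (-5.67 points, exact permutation adjusted p = 0.0292) and without any 1 of its own 18 libraries (adjusted p up to 0.0416).

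**Figure D4:**
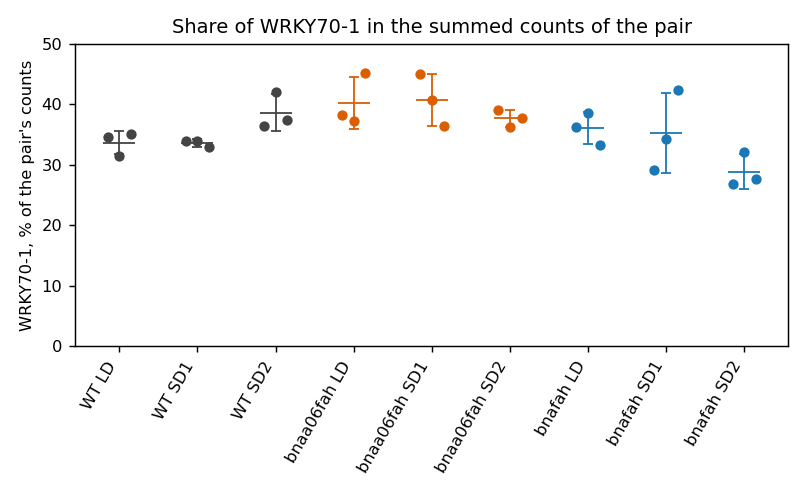
Share of WRKY70-1 in the summed counts of WRKY70 and WRKY70-1 (vertical axis, percent, from 0) by group. Points are libraries and bars are mean ± SD of 3. The wild-type libraries in LD and at SD1 lie between 31.4 and 35.0, and the double-line SD2 libraries between 26.8 and 32.2.

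Few other salicylate genes carry a name in the RefSeq table. The list of salicylate synthesis and signalling genes held 14 besides the members, all tested. It was chosen with earlier results of these data known and counts copies of a gene separately. Its counts therefore describe these named genes only. Against wild type at SD1, 4 of the 14 were lower in the single line and none was higher, with a list median of log2 -0.51 against -0.01 over all tested genes, of which 2.24% were called lower. WRKY53-1 (LOC106441470) and WRKY53 (LOC106375988), which in Arabidopsis promote leaf senescence, stood at log2 -4.45 ± 1.05 and -4.37 ± 1.02 (edgeR adjusted p = 0.0151 and 0.0146). Their means were 0.793 CPM in the single line against 17.3 CPM in wild type and 0.273 against 5.66 CPM. WRKY40-1 (LOC106430771), whose Arabidopsis counterpart is a transcriptional repressor in immunity, averaged 0.776 against 9.71 CPM (log2 -3.65 ± 0.88, edgeR adjusted p = 0.0188). MPK3 (LOC106405163), a mitogen-activated kinase of immune signalling, averaged 16.9 ± 1.85 against 37.6 ± 6.197 CPM (log2 -1.15 ± 0.31, edgeR adjusted p = 0.0409). Wild type was itself highest at SD1 among its stages for these 4 genes. Its LD means were 4.44, 1.70, 1.91 and 17.8 CPM for WRKY53-1, WRKY53, WRKY40-1 and MPK3. The single-line LD means were 1.81, 0.850, 0.772 and 17.4 CPM. In LD 0 of the 14 passed with edgeR, where 2.98% of all genes were called. The SD1 calls of these 4 genes were each lost without 2 to 5 of the 6 libraries, taken singly. The edgeR adjusted p then reached 0.105, 0.0731, 0.128 and 0.191. In limma on FPKM the MPK3 call was also lost, with pseudocounts of 0.1 and 1 (adjusted p = 0.0522 and 0.0545). WRKY40 and MPK3.1, the named copies of WRKY40-1 and MPK3, did not pass at SD1, at -2.74 and -1.02 (edgeR adjusted p = 0.139 and 0.0914).

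At SD2 the order of the means was the opposite. WRKY53-1 averaged 15.8 ± 10.8 CPM in the single line against 1.57 ± 0.824 CPM in wild type (SD, n = 3). WRKY53 averaged 5.59 ± 3.62 against 0.462 ± 0.245 CPM, and WRKY40-1 10.5 ± 9.29 against 3.66 ± 0.428 CPM. The libraries of WRKY53-1 and of WRKY53 did not overlap, as for 18.6% of all genes in that comparison. Those of WRKY40-1 overlapped. With edgeR 0 of the 14 passed there, with 2.56% of all genes called, and the list median was 0.32 against -0.02 over all genes.

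Of the 14, 0 passed with edgeR in the double line at SD1, where 0.565% of all genes passed and 5.95% had an unadjusted p under 0.05. With so few calls a count of 0 is no result about the list, and the list median was -0.11 against 0.01 over all genes. There WRKY53-1 averaged 12.9 ± 15.3 CPM, from 2.15 to 30.5 CPM, and WRKY53 from 0.537 to 11.3 CPM. Both were called higher in the double than in the single line at SD1, where 1.69% of all genes were called higher. Each call depended on all single-line SD1 libraries and on double-line SD1 replicate 2, and leaving out 1 of these gave edgeR adjusted p up to 0.319 for WRKY53-1 and 0.407 for WRKY53. Neither passed in a fit of the 6 libraries alone (edgeR adjusted p = 0.0963 and 0.345), without the filter (0.0788 and 0.0544) or in limma on FPKM, where a pseudocount of 1 gave adjusted p = 0.163 and 0.236 and a log2 value of 1.49 for WRKY53, against 4.04 in the edgeR fit of all libraries. The phenylalanine ammonia-lyase genes PAL1-2, PAL2-1 and PAL2-2, which open phenylpropanoid synthesis, stood between log2 -0.18 and 0.43 at SD1 in both lines, and PAL-BN-1 at -0.84 and -0.53. MPK4.1 and mapk4, kinases that in Arabidopsis restrain salicylate responses, stood between -0.13 and 0.26. None of these passed. WRKY28-1 and WRKY28.2, with means of at most 1.75 CPM at SD1, stood the other way in the single line, at 2.67 ± 0.76 and 4.47 ± 1.93, and did not pass (edgeR adjusted p = 0.0600 and 0.358). Averaged over stages 0 of the 14 passed in either line with edgeR, with medians of -0.20 in the single and 0.26 in the double line, where 5.56% and 2.57% of all genes passed and 16.1% and 13.1% had an unadjusted p under 0.05.

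**Figure D5:**
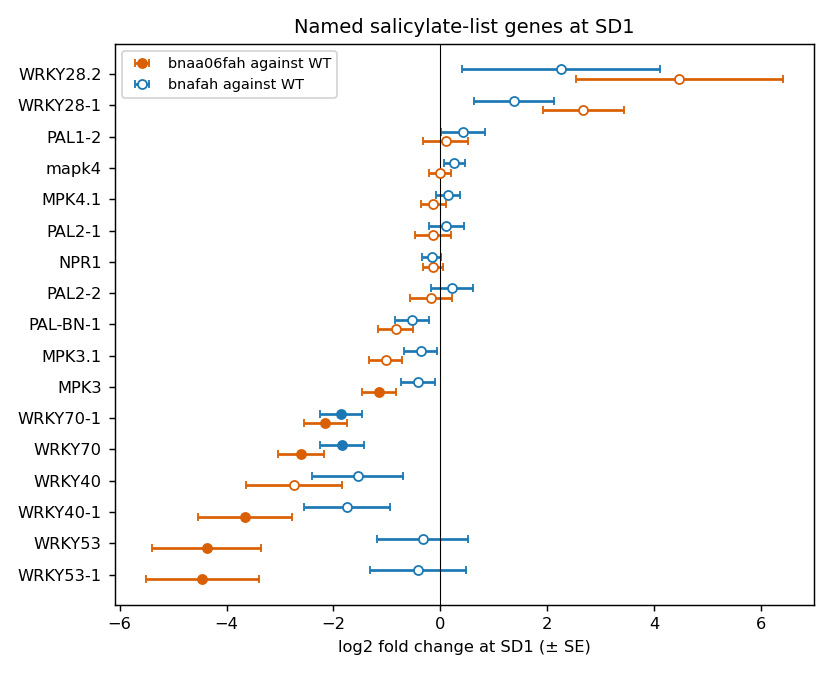
Log2 fold change against wild type at SD1 (horizontal axis, ± SE) of the 17 named genes of the salicylate list, the members included, ordered by the single-line value. Filled points passed an edgeR adjusted p of 0.05, which WRKY70 and WRKY70-1 did in both lines and WRKY53, WRKY53-1, WRKY40-1 and MPK3 in the single line.

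Among the other named WRKY transcription factors, 28 of 32 were tested. This list too was chosen with earlier results of these data known. At SD1 4 of the 28 were lower in the single line and none was higher, where 2.24% of all genes were called lower, with a median of -0.17 against -0.01 over all genes. Of these, WRKY53, WRKY53-1 and WRKY40-1 are already counted in the salicylate list, and the other is WRKY33-1 (LOC106410925). WRKY33-1 averaged 1.59 against 17.1 CPM (log2 -3.43 ± 0.92, edgeR adjusted p = 0.0411) and did not pass when any 1 of the 6 libraries was left out. For the double line 0 of the 28 passed at SD1 with edgeR, with a median of -0.11. Averaged over stages, 1 of the 28 was higher in each line and none was lower, close to the 2.04% and 1.39% of all genes called higher. It was WRKY42 (LOC106438760) at log2 0.86 ± 0.22 in the single line (edgeR adjusted p = 0.0186) and 0.96 ± 0.22 in the double line (adjusted p = 0.0156). Its single-line call was lost without single-line SD1 replicate 3 (adjusted p = 0.0652). The jasmonate list held 1 named gene and is not described.

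The genes around each member were read along the gene order of the Da-Ae assembly. At SD1 the 40 tested genes nearest to WRKY70, 20 on each side, had a median log2 fold change of -0.11 in the single line and -0.06 in the double line, and 1 was called lower in each. The 40 around WRKY70-1 had medians of -0.07 and -0.06, with 1 and 0 called lower. The 40 around NPR1 had medians of 0.10 and 0.09, with none called. Over all genes the median was -0.01 in the single line and 0.01 in the double line. Of all tested genes 3.07% and 0.565% were called, 2.24% and 0.212% as lower. The WRKY70 members stood at -2.61 to -1.84. A cause in the region around a member was not tested, and the gene order of the build used for the counts could differ.

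Named genes with the most similar pattern were ranked by Pearson's r of log2 CPM over the 27 libraries with genotype means subtracted, among 353 named genes, as a description with no p. After WRKY70-1, those closest to WRKY70 were MYB77.1 (LOC106390878, r = 0.656), SDC (LOC106429350, 0.615), MPK3 (0.601) and MYB44 (LOC106358308, 0.596). MYB77.1 and MYB44 are transcription factors of the R2R3 type. The farthest was CTR1 (LOC106372651, -0.577), a kinase that holds ethylene signalling off. After WRKY70, those closest to WRKY70-1 were MYB77.1 (r = 0.616), MYB44 (0.564), peroxidase (LOC106444911, 0.539) and MPK3 (0.525). Closest to NPR1 were the kinase genes MPK3 (r = 0.803), MPK3.1 (LOC106347512, 0.756) and CPK10.1 (LOC106368892, 0.697). WRKY25-1 (LOC106407015, 0.627) and WRKY7-1 (LOC106440813, 0.626) followed. The farthest was AGL20 (LOC106438253, -0.633), a flowering-time gene. Over all genes 4 were more like NPR1 than MPK3 was, and 68 were more like WRKY70 than MYB77.1 was.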

How the data were processed

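Per the labels' protocols, TRIzol RNA went into TruSeq v2 libraries for a HiSeq instrument. The submitters' processing notes name Trim Galore and HISAT2. Their versions, the counting tool, the annotation and the build are not stated by any source at hand. The counts per gene are as deposited by the authors, not scaled. The FPKM values were also made by the authors, and were used for levels between genes and as a check.

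Of 119533 entries, 1 names no gene and was left out (at most 2.61e-05% of counts). Of the 119532 gene entries, 85737 were found in RefSeq's Da-Ae gene table, which names 482 of them. No coordinates are given, since the builds could differ. Groups follow the labels' genotype and stage.

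The test was edgeR 4.0.16 in R 4.3.3: filter by group (72039 genes kept), TMM factors of 0.862 to 1.14, and 1 robust quasi-likelihood fit of all 27 libraries with 18 residual degrees of freedom. There were 30 contrasts, with p-values adjusted (Benjamini-Hochberg) over all tested genes of a contrast and a threshold of 0.05. Log2 CPM used a prior count of 2. The share of WRKY70-1 was tested by exact permutation of genotype within stage (8000 splits, smallest possible p = 0.00025). Alternatives were DESeq2 1.42.0, other factors, no filter, the replicate block, fits of fewer groups, limma 3.58.1 on log2 FPKM, and each library left out.

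The same fit was also run on simulated counts. They were drawn with each gene's mean over all libraries and the spread of the main fit's trend, not that of each gene. Only genes above a minimum mean CPM were changed. For the single line against wild type at SD1, 15 of 100 genes changed 2-fold were recovered. Of genes changed 4-fold, 97 of 100 were recovered, with 6 false calls among 72039 genes. Most 2-fold changes were thus missed in the simulation. It held 100 changed genes of each size, against 2208 genes called in the data, and recovery of a given member or of a gene with few counts could differ. A value that did not pass is not evidence of no change.

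The members and gene lists were chosen with earlier results of these data known. Named genes are the members, the 5 named genes most like each and the 1 least like it (for WRKY70-1 the latter is not reported here), and up to 4 list genes of smallest adjusted p per main contrast, salicylate genes first. WRKY33-1, the WRKY42 averages and the list genes that did not pass were named to complete the counts.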

Additional observations from a re-analysis of the deposited data

How the results depend on the processing

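The 8 calls of WRKY70 and WRKY70-1 against wild type kept their direction under every alternative. The calls in the single line at SD1 and in the averages of both lines were kept throughout. In the double line at SD1, WRKY70 did not pass in a fit of the 6 libraries alone (log2 -1.85, edgeR adjusted p = 0.186) or with the replicate block (-1.83, adjusted p = 0.0502), and leaving out 1 library gave -2.18 to -1.47. WRKY70-1 gave -2.01 to -1.61 there. The count of calls between genotypes was 4, and 2 to 5 with 1 library left out. Within genotypes it was 0, and 1 in limma on FPKM with either pseudocount. The share of WRKY70-1 in the pair, single line minus wild type, was 3.76 points in FPKM and 3.41 to 4.97 with 1 library left out.

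Replicate numbers showed no pairing of the samples over all genes. Of 108 pairs of same-numbered libraries of different groups, 19 had deviations correlated over 0.1, and the median of the 108 was -0.0102. Of 27 libraries, 10 correlated best with their own number. A batch that acts on some genes only could be missed by such a correlation. With the replicate block 3 member calls between genotypes and 4 in the averages remained, and 2054 and 377 genes of all were called at SD1 in the single and double line against 2208 and 407 without it. MPK3 and WRKY33-1 in the single line at SD1 and both WRKY53 genes between the lines did not pass with the block (edgeR adjusted p = 0.0631, 0.0641, 0.0999 and 0.0999).

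The 407 genes called in the double line at SD1 became 885 with DESeq2, 210 in a fit of the 6 libraries alone and 632 in FPKM with a pseudocount of 1. They became 266 in the lowest of the fits without 1 library. The 1855 of its average became 3116 with DESeq2 and 4650 without double-line SD2 replicate 2. Under the other alternatives, differences near 0 that had not passed changed sign and still did not pass. For WRKY70 these were the single line from LD to SD2 (-0.01 with upper-quartile factors, -0.02 with the replicate block, -0.48 to 0.35 with 1 library left out) and SD1 to SD2 over genotypes (0.00 in FPKM with a pseudocount of 0.1, and -0.22 to 0.07). Leaving out 1 library also turned LD to SD2 over genotypes (-0.02 to 0.32), the double line from LD to SD1 (-0.03 to 0.68), and double minus single line in LD (-0.26 to 0.29). For WRKY70-1 it was the difference of the LD to SD2 change between single line and wild type (-0.07 and -0.05 in FPKM, -0.46 to 0.46 with 1 library left out). It was also LD to SD2 in wild type (-0.59 to 0.32), in the single line (-0.56 to 0.15) and over genotypes (-0.10 to 0.24), SD1 to SD2 in the single line (-0.17 to 0.56) and LD to SD1 in the double line (-0.02 to 0.38). For NPR1 it was LD to SD2 in the double line (0.20 and 0.18 in FPKM, -0.29 to 0.08) and double minus single line over stages (0.00 in FPKM with either pseudocount, -0.11 to 0.03). It was also LD to SD1 in the single line (-0.13 to 0.13), SD1 to SD2 in the double line (-0.09 to 0.29), and the double line at SD2 against wild type (-0.01 to 0.35) and at SD1 against the single line (-0.18 to 0.15). The causes of these changes were not tested. Ranked by Spearman's rho among named genes, WRKY70 and WRKY70-1 stayed closest to each other, and MPK3 stayed closest to NPR1. Other ranks moved. By Spearman's rho MPK3 fell to rank 9 for WRKY70 and 14 for WRKY70-1, and WRKY7-1 to rank 19 for NPR1. With genotype means kept, CPK10.1 fell to rank 171 of 353 for NPR1 (Pearson's r = 0.0697).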
